A study of Mus musculus with 12 samples.

Results

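Deep-layer cortical identity genes were followed in the cortex of C57BL/6 mice of 3 Mir137 genotypes; Mir137 encodes miR-137, a microRNA abundant in brain. The set holds 10 genes, Fezf2, Tbr1, Sox5, Etv1, Tle4, Ntsr1, Syt6, Rprm, Sulf1 and Crym, and each was found by its symbol once among the 23951 rows of every deposited table. RNA was sequenced from wild-type mice (WT), mice labelled miR-137/+ (Het) and mice labelled miR-137 KO (KO), with 4 libraries per genotype and 12 in all. The series set out to examine miR-137 in neurodevelopment with knockout mice. Not given in the sources used here are the age of the mice, the cells in which the gene was removed and any allele beyond this locus. The authors deposited 1 RPKM value (read density scaled by gene length and library size) per genotype in each of 3 pairwise tables, with a p and an adjusted p per gene. The libraries of a genotype are pooled in that value, so no SD can be attached to it and the depth behind it is unknown. No label ties each library to its own mouse, and the p-values then reflect spread between libraries that may be technical replicates. Rose and fell are used for an adjusted p below 0.05 in the authors' deposited table. Folds are ratios of RPKM, and log2 differences are of log2(RPKM + 1), a scale on which low genes change less than their ratio.

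The deep layers of the neocortex, layers 5 and 6, hold the projection neurons that leave the cortex. Layer 5 neurons send axons to the brainstem, spinal cord and striatum, and layer 6 corticothalamic neurons send theirs to the thalamus. Their identities are set during development by transcription factors that restrain each other: Fezf2 and its downstream partner Bcl11b (CTIP2) favour subcerebral layer 5 fate, while Tbr1 favours layer 6 fate and represses Fezf2. Sox5 controls the order in which these neuron types are made, and Tle4 is a corepressor of the Groucho family that is found in corticothalamic neurons. In bulk tissue, fewer cells of a type and less RNA per cell cannot be told apart.

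The sequence of miR-137 is shown first because its loss defines the genotypes, and then the places in the 10 genes that its seed could pair with. The mature strand, from RefSeq (GRCm38.p6), is written 5′ to 3′ with its seed, bases 2 to 8, in capitals.
mmu-miR-137-3p: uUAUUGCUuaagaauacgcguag

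The longest annotated 3′ UTR of each gene (GENCODE M21) was searched on the sense strand for the seed's complement AGCAATA, for the same letters followed by A (AGCAATAA, an 8mer), and for GCAATAA. A match was present in 5 of the 10 genes, and 2 of these were 8mers. Those of 4 genes are shown, with the matches in capitals, in mRNA sense as DNA letters.
Sulf1, 8mer: ctgcgggaataAGCAATAAataaagcaaga
Sox5, 8mer: tgcaggctcagAGCAATAAgcaagtatgag
Tbr1, 7mer: ggccccacatcAGCAATAttattttgcct
Tle4, 7mer: ttacacacggaAGCAATAtgttgctgtgt

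Among 12467 measured genes with a 3′ UTR, 16.7% held such a match and 4.72% an 8mer. The 3′ UTRs of the deep-layer genes were longer, with a median of 1938 nt against 1412 nt over all these genes. Among the 4600 genes whose 3′ UTR was at least as long as the deep-layer median, 29.5% held a match, and so did 3 of the 5 deep-layer genes of that length. The Sulf1 match lay in 5 of 5 annotated transcripts with a 3′ UTR and the Tle4 match in 2 of 2. The matches of Sox5 and Tbr1 lay in 2 of 5 and 1 of 2 transcripts. A match is a description of sequence, and pairing with miR-137 was not measured.

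In WT cortex the 10 genes were all detected, between 2.70 RPKM for Syt6 and 422 RPKM for Crym. Crym, which encodes the thyroid hormone-binding protein mu-crystallin, stood above 99.4% of all rows in WT. The other 9 genes lay between 2.70 and 20.2 RPKM in WT, and none of the 10 was below 1 RPKM in any genotype. The lowest value was 1.14 RPKM for Sulf1 in KO. The targeted gene itself, Mir137, was listed at 0 RPKM in all 3 genotypes, so its row checks no genotype label. The WT, Het and KO values of the deep-layer genes differed between the 2 tables that hold each genotype by at most 0.0882%, 0.683% and 0.586%.

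**Figure D1:**
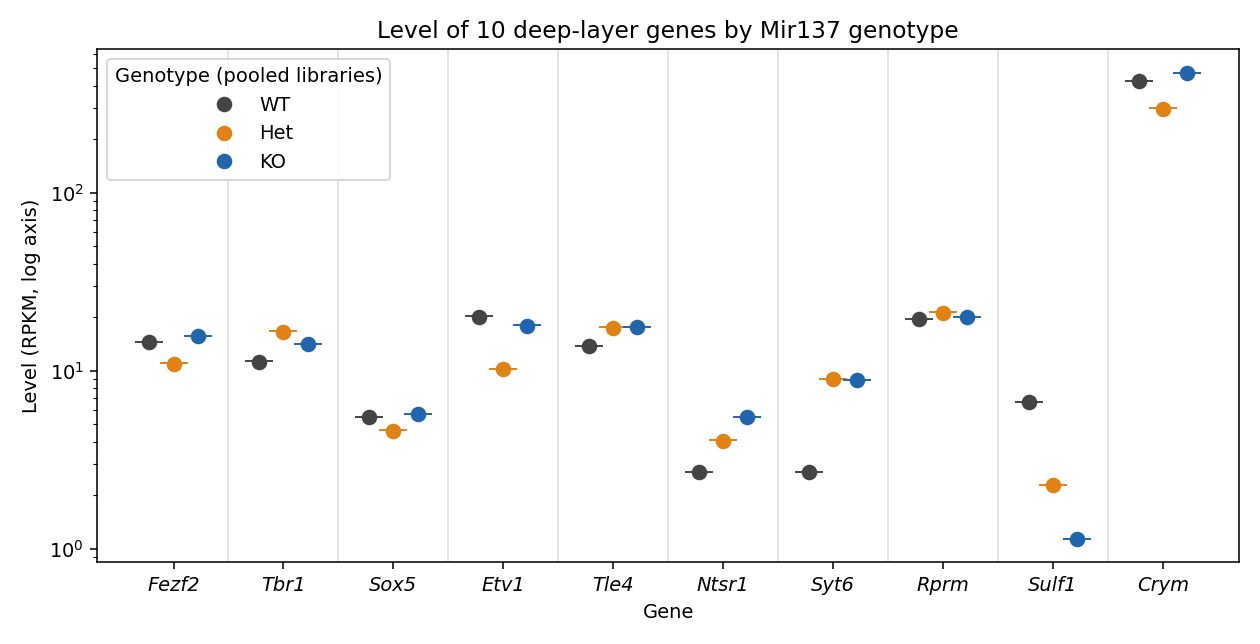
Level of each deep-layer gene in RPKM (log axis) by genotype; a point is the pooled value of a genotype from the first table that holds it and the horizontal dash its value in the second. Fezf2, Etv1 and Crym dip in Het, Sulf1 steps down from 6.72 to 1.14 RPKM, and Syt6 stands at 8.98 and 8.87 RPKM in Het and KO against 2.70 in WT.

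The deep-layer genes did not move as a block. In Het against WT 4 rose (Syt6, Tbr1, Ntsr1 and Tle4) and 4 fell (Sulf1, Etv1, Crym and Fezf2), while Sox5 and Rprm did not pass the test. Over all 14159 genes tested in that comparison 3.95% rose and 5.06% fell in the authors' deposited table, 9.0% in either direction. In KO against WT 3 rose (Syt6, Ntsr1 and Tle4) and 1 fell (Sulf1), where 6.72% of 14059 genes rose and 7.68% fell, 14.4% in either direction. In KO against Het 3 were higher in KO (Crym, Etv1 and Fezf2) and 1 was lower (Sulf1), where 0.917% of 14062 genes were higher and 0.953% lower, 1.87% in either direction. The median log2 difference of the 10 genes was -0.05 in Het against WT, 0.13 in KO against WT and 0.13 in KO against Het. Over all genes tested the medians were 0.01, 0.01 and 0.00. The 3 comparisons share their genotypes in pairs, so their calls are not separate evidence.

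**Figure D2:**
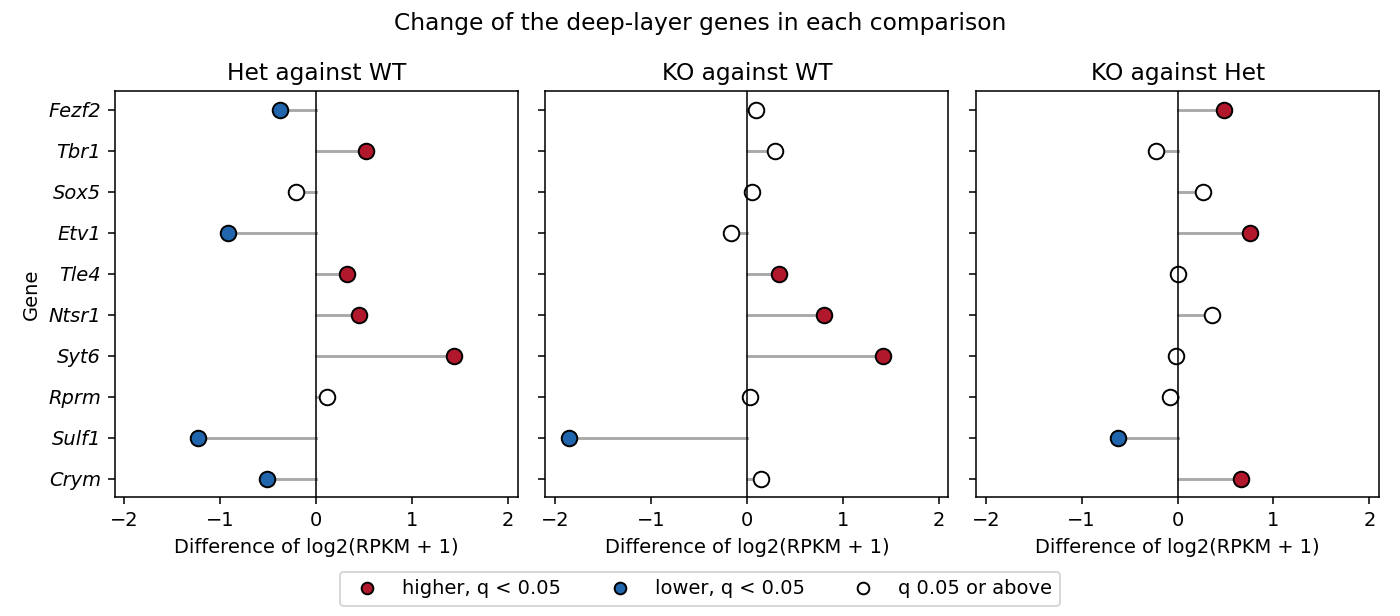
Difference of log2(RPKM + 1) for each deep-layer gene in the 3 comparisons, with filled points for an adjusted p below 0.05 in the authors' deposited tables (red higher, blue lower) and open points for the rest. Rises and falls are equal in number in Het against WT, and Fezf2, Etv1 and Crym are filled on the low side in Het against WT and on the high side in KO against Het.

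The layer 5 transcription factors of the set, Fezf2 and Etv1, fell in Het and stood near WT in KO. Fezf2, a zinc finger factor needed for corticospinal neurons, was at 14.6 RPKM in WT, 10.9 in Het and 15.7 in KO. It fell by 24.9% in Het (adjusted p 0.0405 in the authors' deposited table) and was 1.43-fold higher in KO than in Het (adjusted p 0.0375 in the authors' deposited table). Its KO level did not differ from WT past the threshold (adjusted p 0.698 in the authors' deposited table), a 1.08-fold ratio. Etv1, an ETS-family factor that marks layer 5 neurons, was at 20.2 RPKM in WT, 10.2 in Het and 17.9 in KO. That is 1.98-fold lower in Het (adjusted p 0.00135 in the authors' deposited table). KO exceeded Het 1.76-fold (adjusted p 0.00517 in the authors' deposited table), and for KO against WT the adjusted p was 0.423 in the authors' deposited table. For both genes Het was the low genotype.

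The layer 6 regulators Tbr1 and Tle4 stood higher in the mutants. Tbr1, a T-box factor, was at 11.3 RPKM in WT, 16.6 in Het and 14.1 in KO. It rose 1.47-fold in Het (adjusted p 0.00135 in the authors' deposited table). In KO the ratio was 1.25, which missed the threshold (adjusted p 0.0842 in the authors' deposited table), and KO and Het did not differ past it (adjusted p 0.600 in the authors' deposited table). Tle4 was at 13.7 RPKM in WT, 17.5 in Het and 17.5 in KO. It rose 1.27-fold in Het and 1.28-fold in KO (adjusted p 0.0413 and 0.0403 in the authors' deposited tables). The KO call was lost when p-values were adjusted over the 3 tables together (adjusted p 0.0614). Tle4 was the member of its family that rose: 5 of the 6 TLE corepressor genes listed were tested, and in both mutants 1 rose in the authors' deposited tables. Sox5, an SRY-box factor, was at 5.49 RPKM in WT, 4.59 in Het and 5.72 in KO. None of its 3 comparisons passed, with adjusted p 0.266, 0.853 and 0.406 in the authors' deposited tables, and its KO value was 1.24-fold its Het value.

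Of the layer 6 genes that are not regulators of fate, Ntsr1 and Syt6 rose in both mutants and Rprm did not pass. Ntsr1, a neurotensin receptor whose promoter is widely used to mark corticothalamic neurons, was at 2.72 RPKM in WT, 4.05 in Het and 5.47 in KO. It rose 1.49-fold in Het (adjusted p 0.0258 in the authors' deposited table) and 2.01-fold in KO (adjusted p 0.000987 in the authors' deposited table). From Het to KO the step was 1.35-fold and did not pass (adjusted p 0.189 in the authors' deposited table). Syt6, a member of the synaptotagmin family of membrane trafficking proteins, was at 2.70 RPKM in WT, 8.98 in Het and 8.87 in KO. It rose 3.32-fold in Het and 3.29-fold in KO (adjusted p 0.00135 and 0.000987 in the authors' deposited tables). Het and KO lay within 1.56% of each other for Syt6 in the table that compares them (adjusted p 0.998 in the authors' deposited table). Syt6 moved more than 98.3% of measured genes in Het against WT, by the size of the log2 difference. Rprm, a p53-induced inhibitor of cell division that marks layer 6, was at 19.5 RPKM in WT, 21.2 in Het and 20.0 in KO. Its adjusted p was 0.761, 0.916 and 0.965 in the authors' deposited tables for Het against WT, KO against WT and KO against Het.

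Sulf1 fell furthest of the 10 genes. It encodes a secreted sulfatase that trims sulfate groups from heparan sulfate and so alters how growth factors bind at the cell surface. Sulf1 was at 6.72 RPKM in WT, 2.27 in Het and 1.14 in KO. It was 2.95-fold lower in Het and 5.92-fold lower in KO (adjusted p 0.00135 and 0.000987 in the authors' deposited tables). KO was also 2.01-fold lower than Het (adjusted p 0.00517 in the authors' deposited table). Sulf1 is the member whose 3 levels were each separated by a call, in the order WT, Het, KO. The summed level of choroid plexus genes had the same order, at 2212 RPKM in WT, 337 in Het and 113 in KO. That sum mostly follows 1 gene, Ttr, at 2027 RPKM in WT. Of the 10 listed, 9 fell in each mutant in the authors' deposited tables, and none was at 0 in any genotype. In KO against Het 4 of the 7 tested were lower in the authors' deposited table. Their part in the Sulf1 values was not tested.

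Crym was at 422 RPKM in WT, 296 in Het and 469 in KO. It fell by 30.0% in Het (adjusted p 0.00135 in the authors' deposited table) and was 1.59-fold higher in KO than in Het (adjusted p 0.00517 in the authors' deposited table). KO and WT did not differ past the threshold (ratio 1.11, adjusted p 0.473 in the authors' deposited table). Crym thus had the Het-low order of Fezf2 and Etv1 at a far higher level. It remained the highest of the 10 genes in every genotype, so a sum over them mostly follows Crym: that sum was 75.5% of WT in Het and 111% in KO.

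The order of levels among the other genes changed between genotypes. Counted from the highest level, Etv1 had rank 2 in WT, 6 in Het and 3 in KO, and Sulf1 went from rank 7 in WT to 10 in both mutants. Syt6 went from rank 10 in WT to 7 in both mutants. Sox5 and Ntsr1 kept ranks 8 and 9 in the 3 genotypes. In KO the neighbours Rprm, Etv1, Tle4, Fezf2 and Tbr1 lay between 14.1 and 20.0 RPKM, and with no spread per genotype their order cannot be tested.

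Genes of layer 5 outside the set also split, and several had the Het-low order. Of 16 listed, 14 were tested; 2 rose and 5 fell in Het, and 3 rose and 4 fell in KO, in the authors' deposited tables. In KO against Het 3 were higher. Tshz2, a zinc finger gene, was at 6.03 RPKM in WT, 2.33 in Het and 10.8 in KO (adjusted p 0.00135 for Het and 0.000987 for KO in the authors' deposited tables). It was 4.64-fold higher in KO than in Het (adjusted p 0.00517 in the authors' deposited table). Ldb2, a LIM-domain cofactor, was at 17.8 RPKM in WT against 11.0 in Het (adjusted p 0.00135 in the authors' deposited table) and 2.05-fold higher in KO than in Het (adjusted p 0.00517 in the authors' deposited table). Npr3, the clearance receptor of natriuretic peptides, was at 4.57 RPKM in WT, 1.74 in Het and 2.85 in KO, and each of its 3 comparisons passed (adjusted p 0.00135, 0.000987 and 0.00517 in the authors' deposited tables). Vat1l fell in both mutants, to 12.8 and 9.94 RPKM from 17.9 (adjusted p 0.00135 and 0.000987 in the authors' deposited tables).

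The layer 5 genes that rose in both mutants are also expressed in striatal neurons. Pcp4, a calmodulin-binding protein, was at 264 RPKM in WT, 514 in Het and 477 in KO (adjusted p 0.00135 and 0.000987 in the authors' deposited tables). Bcl11b was at 19.2 RPKM in WT, 25.2 in Het and 28.6 in KO (adjusted p 0.0128 and 0.000987 in the authors' deposited tables). The summed level of the layer 5 list, 157% of WT in Het and 153% in KO, mostly follows Pcp4. Striatal projection neuron genes moved with them: 19 of 19 found in the tables rose in both mutants in the authors' deposited tables. Their summed level was 123 RPKM in WT, 610 in Het and 638 in KO, and none was at 0 in any genotype. In KO against Het 0 of the 19 passed in the authors' deposited table (5 at an unadjusted p under 0.05). Crym, a member of the deep-layer set, is also expressed in striatum. The part of striatal RNA in the values of the deep-layer genes was not tested.

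Other corticothalamic genes went both ways, and the part of striatal RNA in their values was not tested. Of 13 tested, 3 rose and 2 fell in Het and 5 rose and 1 fell in KO, with median log2 differences of 0.17 and 0.27 in the authors' deposited values. Foxp2, a forkhead factor of layer 6 and striatum, rose 4.03-fold in Het and 4.62-fold in KO, from 0.853 RPKM (adjusted p 0.00135 and 0.000987 in the authors' deposited tables). Oprk1, the kappa opioid receptor, was at 0.451 RPKM in WT, 1.08 in Het and 1.03 in KO (adjusted p 0.00602 and 0.000987 in the authors' deposited tables). Htr4, a serotonin receptor, fell from 1.99 to 1.21 RPKM in Het and 1.01 in KO (adjusted p 0.0235 and 0.000987 in the authors' deposited tables). Nxph3, a neurexin ligand, was at 5.33 RPKM in WT and 11.3 in KO (adjusted p 0.000987 in the authors' deposited table), and 1.98-fold higher in KO than in Het (adjusted p 0.00517 in the authors' deposited table). Col5a1, a fibrillar collagen chain, fell to 1.37 from 2.18 RPKM in Het (adjusted p 0.00434 in the authors' deposited table) and was 1.81-fold higher in KO than in Het (adjusted p 0.00517 in the authors' deposited table). Genes of the thalamus, which these neurons innervate, fell in 4 of 8 tested in each mutant in the authors' deposited tables. Their summed level was 79.7% of WT in Het and 80.0% in KO. That sum mostly follows 1 gene, Calb2, at 90.7 of 149 RPKM in WT. The part of thalamic RNA in the corticothalamic values was not tested.

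Genes of the layer fate network around Fezf2, Tbr1 and Sox5 mostly rose or did not pass. Of 22 tested, 8 rose and 1 fell in Het, and 6 rose in KO, in the authors' deposited tables. Sox11, a factor of immature neurons, rose 1.47-fold in Het and 1.54-fold in KO (adjusted p 0.00135 and 0.000987 in the authors' deposited tables). Grin2b, an NMDA receptor subunit gene regulated by Tbr1, fell in Het to 5.60 RPKM from 9.60 (adjusted p 0.00135 in the authors' deposited table). It was 1.43-fold higher in KO than in Het (adjusted p 0.00517 in the authors' deposited table).

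Upper-layer and general cortical excitatory genes each held both rises and falls in either mutant. Upper-layer genes rose in 3 and fell in 3 of 16 tested in Het, and rose in 3 and fell in 1 in KO, in the authors' deposited tables. Lamp5, a membrane protein of upper layers and interneurons, went from 9.50 to 20.4 RPKM in Het and 17.2 in KO (adjusted p 0.00135 and 0.000987 in the authors' deposited tables). Of 15 cortical excitatory genes, Tbr1 among them, 5 rose and 1 fell in Het and 2 rose and 3 fell in KO in the authors' deposited tables. The vesicular glutamate transporter Slc17a7 fell in KO to 394 RPKM from 575 (adjusted p 0.000987 in the authors' deposited table). Summed over the cortical excitatory list, the level was 95.4% of WT in Het and 88.8% in KO. That sum mostly follows Camk2a, Nrgn and Slc17a7, at 846, 647 and 575 RPKM in WT. The median log2 difference of the list went the other way, at 0.20 in Het and 0.17 in KO.

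Markers of other cells that cortex dissections can hold were counted beside the deep-layer genes. Oligodendrocyte genes had a summed level of 1140 RPKM in WT, 1566 in Het and 906 in KO, a sum that mostly follows Mbp, a myelin protein gene. Against WT, 2 of the 8 listed rose in Het and 2 fell in KO in the authors' deposited tables, and Mbp itself, at 640 RPKM in WT and 907 in Het, missed the threshold there (adjusted p 0.128 in the authors' deposited table). In KO against Het 7 of the 8 listed fell in the authors' deposited table, and their part in the deep-layer values was not tested. Subplate, layer 6b and claustrum genes rose in 2 of 9 tested in each mutant in the authors' deposited tables. Hippocampal genes rose in 2 and fell in 2 of 10 in Het, and fell in 3 in KO, in the same deposited tables of the authors. Astrocyte genes rose in 1 and fell in 1 of 9 in Het and fell in 1 in KO, and microglia genes rose in 3 and fell in 3 of 9 in both mutants, by the authors' calls. Inhibitory neuron genes rose in 2 and fell in 1 of 12 in Het and fell in 1 in KO, by the authors' calls. No listed gene of these cells was at 0 in any genotype.

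**Figure D3:**
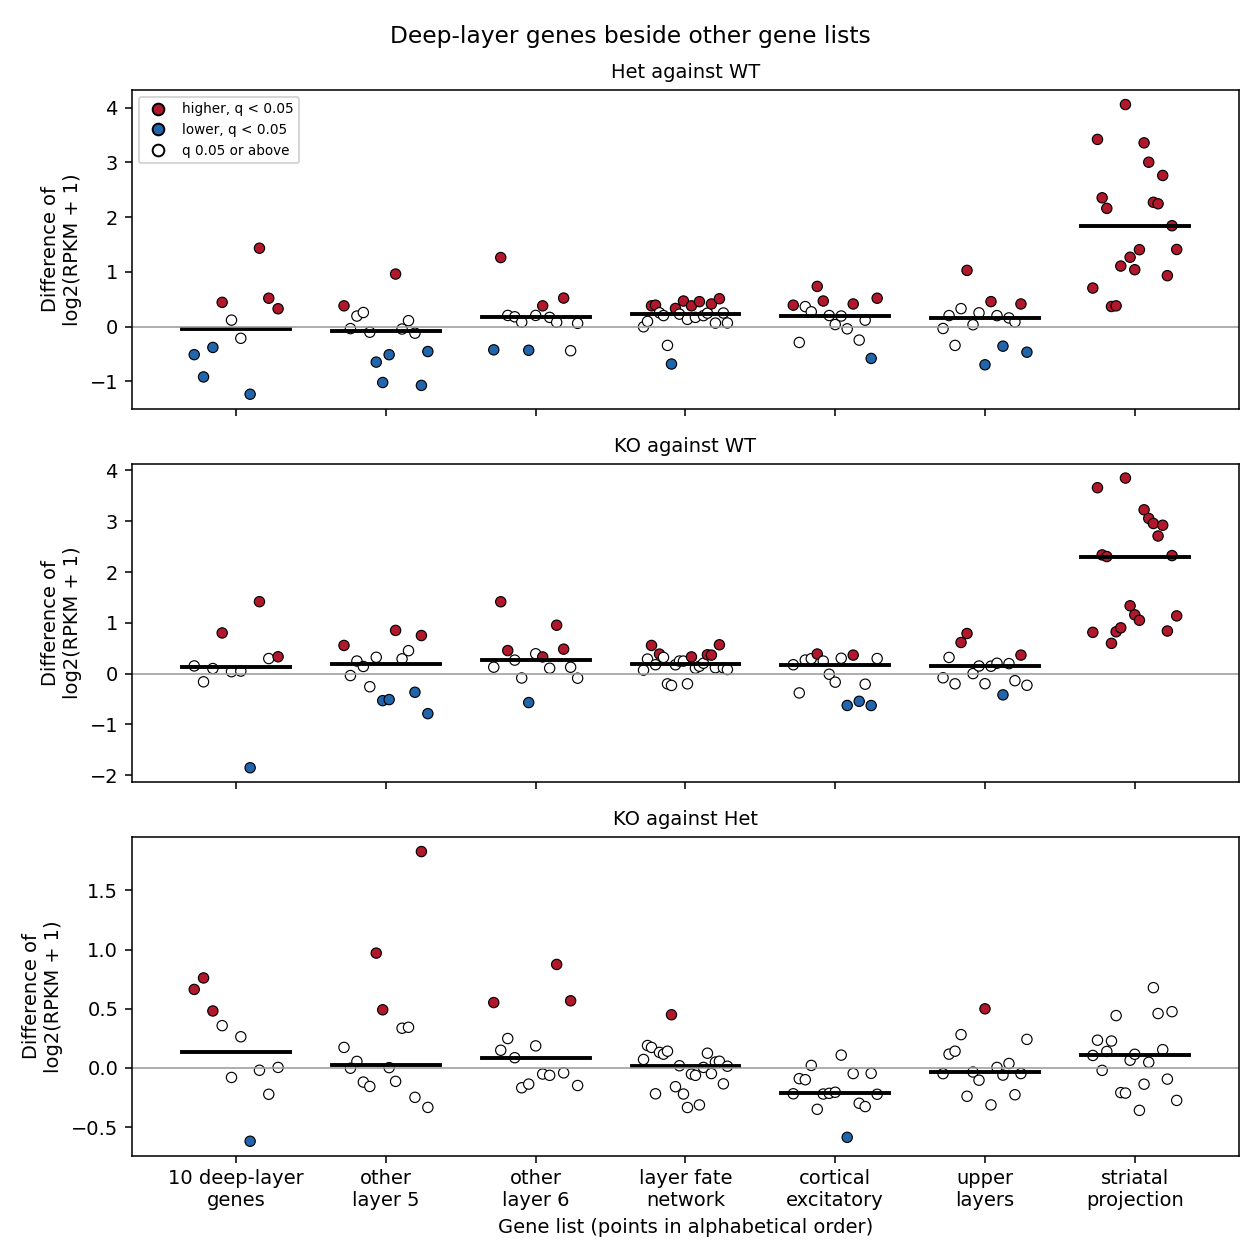
Difference of log2(RPKM + 1) of every measured gene (at least 1 RPKM in either genotype) in the deep-layer set and 6 other lists, with the list median as a bar and colours for the authors' calls. The deep-layer and layer 5 lists spread to both sides of 0 in Het against WT, whereas all 19 striatal genes lie above 0 in both mutants.

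**Figure D4:**
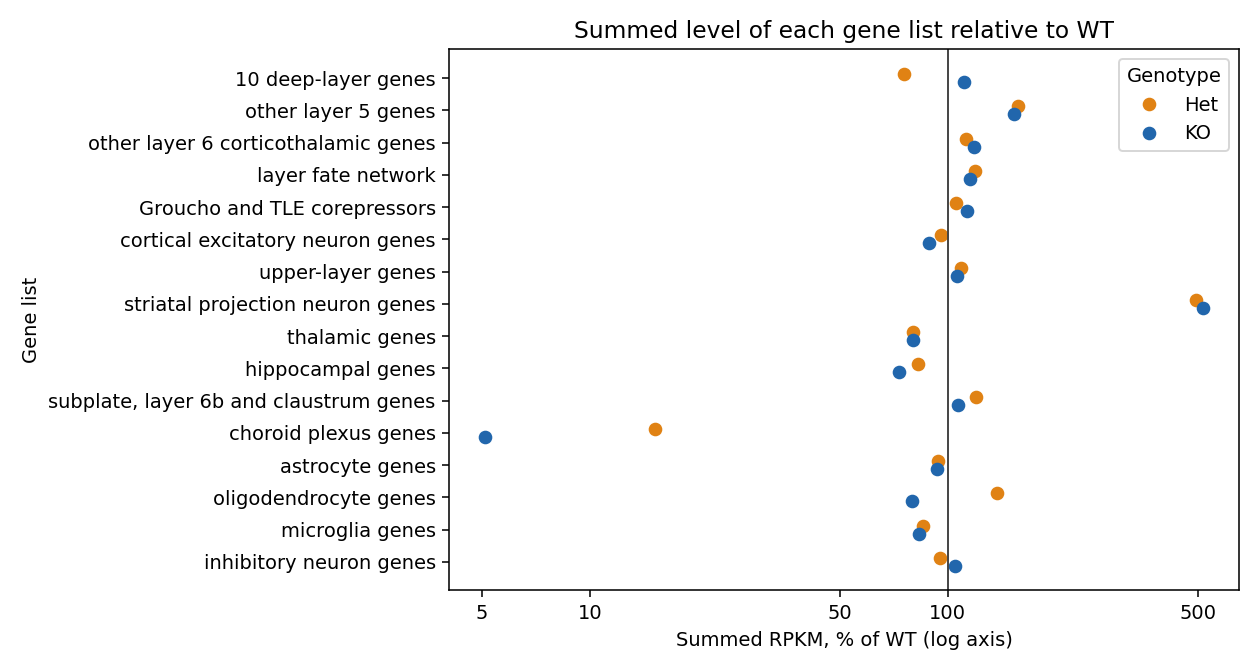
Summed RPKM of each gene list in Het and KO as a percentage of WT (log axis; the vertical line is WT at 100%). The 10 deep-layer genes stand at 75.5% and 111%, striatal genes at 494% and 516%, and choroid plexus genes at 15.2% and 5.10%.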

How the data were processed

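Cortex RNA was sequenced in 12 libraries, 4 per genotype, grouped by the genotype in their titles. TruSeq RNA libraries were read as paired ends, per the labels' protocols. CASAVA 1.4, TopHat2 2.0.13, Cuffdiff 2.2.1 and mouse build mm9 are named in the submitters' processing notes. The role of each tool and the annotation used are not stated there.

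The authors deposited 3 pairwise tables in which a genotype has 1 pooled RPKM value, per the file headers, which leaves the depth of each library unknown. The deposited p-value and q-value (adjusted p) per gene come from the authors' own test, per the file headers. Genes with a p of 1 were taken as untested; over the rest, Benjamini-Hochberg adjustment of p gives the q-values within a relative difference of 7.53e-05. The smallest deposited p is 5e-05, so many genes share the smallest q-value. The column of log2 folds was not used here. No value column was left without a genotype (0 unmapped).

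No test of expression was run on these values, because pooled values have no spread; calls are q below 0.05 in the authors' tables. Log2 differences used a pseudocount of 1 RPKM, and a gene counted as measured at 1 RPKM or more in either genotype. The 10 genes and the 15 comparison lists were chosen with earlier results of these data known, so list counts are descriptions. All 10 genes are named, and of each other list up to 5 called genes per comparison could be named, in order of smallest q and then largest log2 difference; Bcl11b and Mbp in Het are named beside these, chosen after their values were seen. Some of the genes and matches so selected are not reported here. Seed matches were searched in the longest 3′ UTR per gene from GENCODE M21 (GRCm38), joined by symbol, which covered 90.3% of measured genes and 10 of the 10 genes; no coordinates are given, since that build differs from mm9. The mature miR-137 sequence came from RefSeq (GRCm38.p6). The steps were tested on simulated data. Alternatives were a minimum of 5 RPKM or none, pseudocounts of 0.1 and 0.01, q below 0.01, a minimum absolute log2 difference of 0.5, adjustment over the 3 tables together, recentred folds, and levels from the other tables. Software was numpy 2.4.6, pandas 2.3.3 and matplotlib 3.10.9 under Python 3.11.15.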

Additional observations from a re-analysis of the deposited data

Results flagged for a closer look

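The 2 mutant genotypes differed from each other in 4 of the 10 deep-layer genes by the authors' direct comparison of KO with Het, and these are listed for that reason. For Etv1, Crym and Sulf1 the authors' deposited table gave an adjusted p of 0.00517 each, the lowest it holds. Fezf2 had an adjusted p of 0.0375 in the authors' deposited table. Fezf2, Etv1 and Crym were higher in KO than in Het, and Sulf1 was lower.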

How the results depend on the processing

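Calls depended on the thresholds for genes near them. In Het against WT the number of deep-layer genes that rose went from 4 to 2 (Tbr1 and Syt6) with q below 0.01, and to 2 with a minimum absolute log2 difference of 0.5. With a minimum of 5 RPKM the number lower in KO against Het went from 1 to 0, because Sulf1 is below that level in both; at an unadjusted p under 0.05 in the authors' table Sulf1 is lower without the minimum. The same minimum moved the median log2 difference from -0.05 to -0.22 in Het against WT and from 0.13 to 0.26 in KO against Het, with 9 genes left in each. Fezf2 and Tle4 lost every call they had at q below 0.01, and Tle4 in KO also under adjustment over the 3 tables. The other 40 alternative counts and medians stayed within 1.5 times the reported count or 0.1 of the reported median. Those without a minimum could not differ, since no gene was below 1 RPKM. That limit also admits a loss of calls: the number that rose in KO against WT went from 3 to 2 with q below 0.01. The 120 alternative log2 differences of single genes kept their sign, with a largest shift of 0.70 at a pseudocount of 0.01. A change of pseudocount cannot reverse a sign, and levels from the other tables come from the same libraries. The kept signs are therefore little evidence of stability. No paired analysis was possible because the libraries of a genotype are pooled in 1 value, and no library could be left out for the same reason. What depth limits cannot be judged, since it is unknown.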

Other observations

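Ratios between RPKM levels of deep-layer genes within a genotype are given as values without a test, since each genotype has 1 pooled value. The ratio of Fezf2 to Tbr1, regulators that oppose each other in development, was 1.29 in WT, 0.660 in Het and 1.11 in KO. The ratio of Fezf2 to Tle4 was 1.06, 0.627 and 0.895. The ratio of Etv1 to Tbr1 was 1.79, 0.615 and 1.27, and that of Etv1 to Tle4 was 1.47, 0.584 and 1.02. Each of these 4 ratios was lowest in Het. That restates the calls above and adds no evidence, since Fezf2 and Etv1 fell and Tbr1 and Tle4 rose in Het. Bcl11b, a layer 5 factor outside the set, rose in both mutants in the authors' deposited tables. The ratio of Fezf2 to Sox5 moved less, at 2.65, 2.38 and 2.74. The ratio of Ntsr1 to Sulf1 was 0.404 in WT, 1.78 in Het and 4.82 in KO.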
